A study of Mus musculus with 6 samples.

Results

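Chylomicron assembly and intracellular fatty acid binding were followed in the small intestine of suckling mice through 10 genes, chosen by symbol: Apoa1, Apoa4, Apob, Apoc2, Apoc3, Mttp, Sar1b, Apobec1, Fabp1 and Fabp2. All 10 were found among the 24452 gene symbols of every library, and all 10 passed the filter on low values. The tissue came from mice of postnatal day 14, in 3 libraries labelled Erk1/2 -/- and 3 libraries labelled wild type, with C57BL/6 given as the strain for all 6. Polyadenylated RNA was taken from whole frozen small intestine, so epithelium, muscle, vessels and immune cells entered each library together. The labels give no promoter, Cre driver, allele or tissue restriction for the Erk1/2 genotype, and do not say that each library came from a separate animal, so the p-values below measure the spread between these libraries.

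Chylomicrons are the triglyceride-rich particles by which enterocytes export dietary fat into lymph. Fatty acids taken up from the lumen are carried in the cytosol by Fabp1 and Fabp2 and rebuilt into triglyceride, which Mttp, the microsomal triglyceride transfer protein, loads onto apolipoprotein B in the endoplasmic reticulum. The particle gains Apoa1, Apoa4 and the C apolipoproteins, and leaves the endoplasmic reticulum in vesicles that need the small GTPase Sar1b. Apobec1 is the cytidine deaminase that edits the Apob transcript so that the short intestinal form of the protein is made. In suckling rodents, whose milk is rich in fat, chylomicron assembly is strongly used by villus enterocytes.

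In the mm10 (GRCm38) annotation of GENCODE release M21, 3 of the apolipoprotein genes lie side by side on chromosome 9. Apoa1 is at chr9:46228580-46230466 on the plus strand, Apoc3 at chr9:46232933-46235636 on the minus strand and Apoa4 at chr9:46240696-46243459 on the plus strand. Gaps of 2466 and 5059 bases separate them, and the 3 genes span 14880 bases in all. Apoc2 is at chr7:19671579-19677941 on the minus strand, and Apob is at chr12:7977648-8016835 on the plus strand. Mttp (chr3:138089854-138144968, minus strand) and Fabp2 (chr3:122895072-122899506, plus strand) share chromosome 3, Apobec1 (chr6:122577792-122602444, minus strand) and Fabp1 (chr6:71199827-71205023, plus strand) share chromosome 6, and Sar1b is at chr11:51763687-51791925 on the plus strand. Of the 10 genes, 6 overlap no other annotated gene, while Apoa4, Apoc2, Mttp and Fabp2 overlap at least 1. No source used here gives the strand setting of the counting, so reads of those 4 genes may include reads of their neighbours.

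Promoters of 4 members are shown: those of Apoa4, Fabp2 and Apobec1, because they hold the HNF4-type matches found among these genes, and that of Fabp1, the member nearest to the test's threshold. Each is the RefSeq promoter on GRCm38.p6, read 5′ to 3′ on the gene's strand, with motif matches in capitals. It runs from 250 bases before to 50 bases after the start given by RefSeq, from which motif positions are counted. For Fabp2 and Apobec1 that start is also the start of the GENCODE gene above. For Apoa4, Fabp1 and Apob it lies downstream of the GENCODE start, inside the gene. The 300-base windows are chr9:46240594-46240893 (plus) for Apoa4, chr3:122894822-122895121 (plus) for Fabp2, chr6:122602395-122602694 (minus) for Apobec1 and chr6:71199629-71199928 (plus) for Fabp1.
Apoa4: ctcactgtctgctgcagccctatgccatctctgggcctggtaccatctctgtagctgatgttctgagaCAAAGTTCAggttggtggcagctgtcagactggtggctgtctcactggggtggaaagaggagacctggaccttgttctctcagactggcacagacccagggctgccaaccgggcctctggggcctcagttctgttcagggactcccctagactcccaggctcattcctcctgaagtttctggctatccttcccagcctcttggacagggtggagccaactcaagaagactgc
Fabp2: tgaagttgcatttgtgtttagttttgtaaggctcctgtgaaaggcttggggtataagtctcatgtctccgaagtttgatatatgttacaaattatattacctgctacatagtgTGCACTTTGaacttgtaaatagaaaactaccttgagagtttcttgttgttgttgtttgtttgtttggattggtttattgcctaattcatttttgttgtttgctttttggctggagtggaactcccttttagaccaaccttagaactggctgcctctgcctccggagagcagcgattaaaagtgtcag
Apobec1: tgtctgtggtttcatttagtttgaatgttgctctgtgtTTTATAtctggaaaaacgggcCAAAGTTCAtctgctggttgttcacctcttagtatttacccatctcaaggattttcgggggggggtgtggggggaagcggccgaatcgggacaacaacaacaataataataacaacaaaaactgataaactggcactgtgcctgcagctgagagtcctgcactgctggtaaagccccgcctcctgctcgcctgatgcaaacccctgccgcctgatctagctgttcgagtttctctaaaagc
Fabp1: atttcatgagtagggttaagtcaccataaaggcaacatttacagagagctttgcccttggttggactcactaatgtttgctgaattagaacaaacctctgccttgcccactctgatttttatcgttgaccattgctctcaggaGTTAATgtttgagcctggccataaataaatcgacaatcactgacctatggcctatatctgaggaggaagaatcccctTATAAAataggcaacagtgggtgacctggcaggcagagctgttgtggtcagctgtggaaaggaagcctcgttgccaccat
RefSeq promoters were matched for 9 of the 10 members, all but Apoc3. The motif CAAAGTNCA, a site type read by the nuclear receptor HNF4, was searched on both strands and was found in 3 of the 9. Its first base is at -182 from the RefSeq start in Apoa4, at -191 in Apobec1, and at -137 in Fabp2 as the reverse complement. The same letters occur in 380 of 27025 promoters, or 1.41%. The motif TATAAA was found in 3 of the 9, with 14.2% of all promoters holding it: at -30 in Fabp1, at -60 in Apob and, as TTTATA, at -212 in Apobec1. The motif GTTAAT, part of the site read by HNF1, was found at -107 in Fabp1 and at -89 in Apoc2, against 7.2% of all promoters. The GATA motif AGATAA was found in 0 of the 9 promoters and in 11.4% of all promoters. No capital run of one motif overlaps another in the 4 sequences printed.

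The deposited values are normalised counts rounded to whole numbers, and all levels below are in that unit unless a scale is named. Library totals were 14825845 to 17153570 in the libraries labelled knockout and 13641468 to 14094100 in wild type, and the steps between low values gave an estimated 12546568 to 16301996 reads per library before scaling. Mapk3, which encodes the kinase Erk1, was checked against the labels and did not fall in the labelled knockouts. It had 3363, 2280 and 2734 in labelled knockouts 1 to 3, against 3142, 2788 and 2004 in wild types 1 to 3 (log2 fold change 0.09 ± 0.22, SE; limma adjusted p = 0.819). Whole-gene counts do not see a deleted exon or a lost protein, and the groups are therefore called by their labels.

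The libraries also differed in markers of gut segment and in epithelial markers. The sample titles give small intestine and no segment, and the cause of the difference in segment markers was not tested. A segment score, the mean log2 level of 11 proximal genes minus that of 10 ileal genes, was -0.79, 3.49 and 3.81 in labelled knockouts 1 to 3, against 2.51, 1.90 and -1.48 in wild types 1 to 3. Labelled knockout 1 and wild type 3 therefore stood apart by their low scores and are called the low-score libraries. The ileal bile acid binding protein gene Fabp6 was at 1947 in labelled knockout 1 and at 1 to 4 in the other libraries, and the ileal hormone gene Fgf15 was at 390 in labelled knockout 1 and 1975 in wild type 3, against 0 to 13 elsewhere. Amn, of the ileal list, was at 13413 in labelled knockout 1 and 14137 in wild type 3, against 1806 to 4041 elsewhere. The ileal bile acid transporter gene Slc10a2, too low to enter the score, did not follow this split, at 12, 4 and 0 in labelled knockouts 1 to 3, against 7, 6 and 1 in wild types 1 to 3. The score's ileal list holds 1 gene that also separated the groups, Cubn. It was at 747 to 2891 in the labelled knockouts and 4120 to 6234 in wild type, so the score does not measure position alone. An epithelial score over 10 genes was 13.03 to 13.09 in the labelled knockouts and 12.41 to 12.58 in wild type, with no overlap. The sum of those epithelial markers was 135242 to 142610 in the labelled knockouts and 85098 to 101902 in wild type. Hepatocytes also make most of these apolipoproteins, but Alb, the most abundant hepatocyte transcript, was at 0 to 2 in the labelled knockouts and at 2 to 6 in wild type. The sum of 13 hepatocyte markers was 205 to 2613 in the labelled knockouts and 740 to 1146 in wild type, most of it Ttr. Since the samples are bulk tissue, fewer cells of a type and less RNA per cell cannot be told apart.

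Against that setting, 0 of the 10 members passed the 0.05 threshold in the comparison of labelled knockout with wild type (limma on log2(value + 1), Benjamini-Hochberg over 14686 genes), where 1291 genes or 8.79% of all genes passed, 4.85% higher and 3.94% lower in the labelled knockouts. At an unadjusted p under 0.05 there were 4 members, Fabp1, Sar1b, Apobec1 and Apoc3, against 30.3% of all genes. All 3 labelled knockouts lay above all 3 wild types for Fabp1, Sar1b and Apobec1, against 19.8% of all genes, and below them for 0 members, against 17.8% of all genes. The members' log2 fold changes had a median of 0.22, with 6 positive and 4 negative, beside a median of -0.01 over all genes tested. The 5 apolipoproteins had a median of -0.37, the 3 assembly and editing genes 0.52, and the 2 fatty acid binding proteins 0.73. Without labelled knockout 1 and wild type 3, 3 members passed (Fabp1 and Apobec1 higher, Apoc3 lower), where 26.4% of all genes did. With the segment score as a covariate 3 passed (Fabp1 and Sar1b higher, Apob lower), where 29.0% of all genes did, and without labelled knockout 1 alone 2 passed (Fabp1 higher and Apoc3 lower), where 20.6% did. With 10 members, a single gene is 10% of the list, so small differences from these shares are not read as results.

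**Figure D1:**
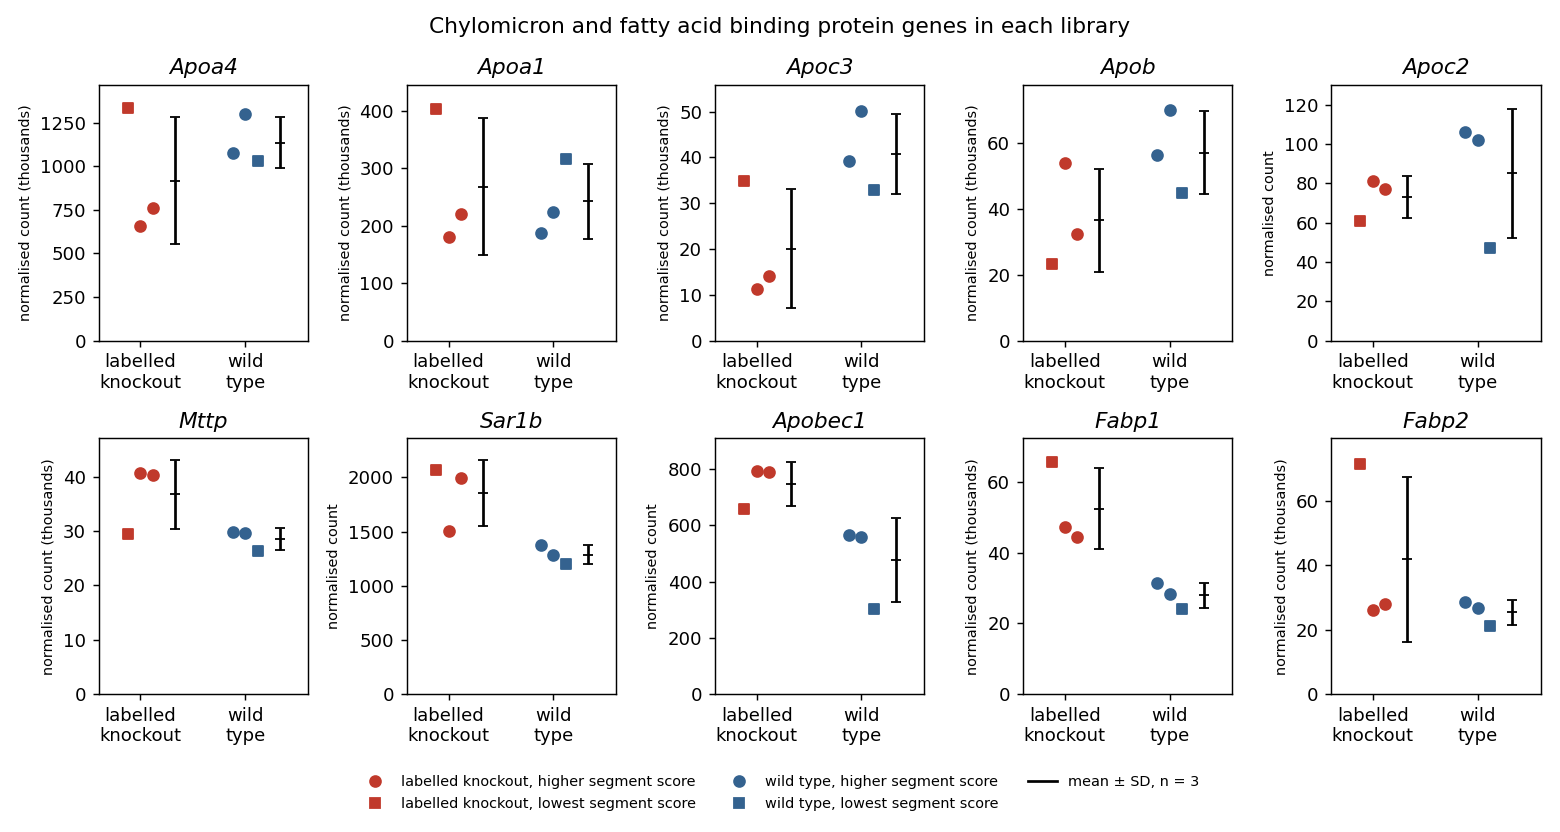
Normalised counts of the 10 members, one panel per gene on a linear axis from 0 (in units of 1000 for the abundant genes), with labelled knockout libraries left of wild type, a point per library and the group mean ± SD (n = 3) beside it; squares are the low-score libraries. Fabp1, Sar1b and Apobec1 are the genes whose 3 labelled knockout points all lie above the 3 wild type points, and no gene shows the opposite separation.

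Apoa4, a lipid-binding apolipoprotein of the chylomicron surface, was the most abundant member. It had 1332120, 655615 and 762717 in labelled knockouts 1 to 3, against 1076986, 1302781 and 1029973 in wild types 1 to 3. Labelled knockout 1 was the highest of all 6 and the other labelled knockouts were the lowest, so the groups overlapped, and the log2 fold change was -0.37 ± 0.41 (SE; limma adjusted p = 0.575). Between the other 4 libraries the difference was -0.74 ± 0.37 (limma adjusted p = 0.177), and between labelled knockout 1 and wild type 3, the pair of low-score libraries, it was 0.37. Apoa4 made up 5.77% ± 1.77 of all normalised counts in the labelled knockouts and 8.23% ± 1.17 in wild type (SD, n = 3 each; exact two-sided permutation p = 0.2, where 3 against 3 cannot go below 0.1).

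Apoa1, the main protein of high-density lipoprotein and also carried on chylomicrons, had 403600, 180866 and 220776 in labelled knockouts, against 188288, 223401 and 315894 in wild type. Its highest values stood in the low-score library of each group, and the groups overlapped. The log2 fold change was 0.09 ± 0.39 (limma adjusted p = 0.889), and -0.04 without those 2 libraries. Its direction also turned under scaling to library totals.

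Apoc3, an inhibitor of lipoprotein lipase and of remnant uptake, had the most negative fold change of the members. It had 34960, 11175 and 14089 in labelled knockouts 1 to 3, against 39335, 50046 and 32805 in wild types 1 to 3. Labelled knockouts 2 and 3 were far below every wild type library, while labelled knockout 1 lay above wild type 3. The means were 20075 ± 12973 in the labelled knockouts and 40729 ± 8705 in wild type (SD, n = 3 each). The fitted log2 difference was -1.18 ± 0.43 with a 95% interval of -2.20 to -0.17 (limma adjusted p = 0.121). Without labelled knockout 1 the difference was -1.68 (limma adjusted p = 0.0102), and without both low-score libraries it was -1.82 ± 0.19 (limma adjusted p = 0.00206). Between the 2 low-score libraries alone it was 0.09, and with the segment score as a covariate it was -1.01 (limma adjusted p = 0.0788). The call on Apoc3 thus turned on labelled knockout 1.

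Apob, the structural protein of the particle, had 23311, 53806 and 32312 in labelled knockouts, against 56244, 69960 and 44684 in wild type. Labelled knockout 2 lay among the wild types and the other labelled knockouts below them. The log2 fold change was -0.71 ± 0.34 (limma adjusted p = 0.214), and it was negative both between the low-score libraries (-0.94) and among the other 4 (-0.59, limma adjusted p = 0.148). With the segment score as a covariate it was -0.89 ± 0.25 (limma adjusted p = 0.0358). Apoc2, the cofactor that activates lipoprotein lipase, was by far the least abundant member, at 61, 81 and 77 in labelled knockouts, against 106, 102 and 47 in wild type. Its groups overlapped, at -0.14 ± 0.34 on the log2 scale (limma adjusted p = 0.804).

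Among the assembly and editing genes, Mttp had 29416, 40614 and 40245 in labelled knockouts, against 29876, 29613 and 26284 in wild type. The labelled knockouts other than the first exceeded every wild type, and the first lay inside the wild type range. The difference was 0.35 ± 0.20 on the log2 scale (limma adjusted p = 0.280), and 0.44 without both low-score libraries (limma adjusted p = 0.0677). Sar1b, the coat GTPase of vesicles leaving the endoplasmic reticulum, had 2065, 1506 and 1992 in labelled knockouts, against 1374, 1286 and 1199 in wild type. Every labelled knockout exceeded every wild type, with means of 1854 ± 304 in the labelled knockouts and 1286 ± 87.5 in wild type (SD, n = 3 each). On the log2 scale the difference was 0.52 ± 0.16 (limma adjusted p = 0.0903), and 0.38 without both low-score libraries (limma adjusted p = 0.111).

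Apobec1 had 659, 794 and 790 in labelled knockouts 1 to 3, against 565, 559 and 304 in wild types 1 to 3. The groups did not overlap, and the lowest library of each group was its low-score one. Over all 6 libraries the log2 difference was 0.70 ± 0.26 (limma adjusted p = 0.127). Among the 4 other libraries it was 0.49 ± 0.11 (limma adjusted p = 0.0208), and between the 2 low-score libraries 1.11. Gene-level counts give the amount of the deaminase transcript and carry no measurement of how much Apob transcript was edited.

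Fabp1, the liver-type fatty acid binding protein, which also binds bile acids and other ligands, came closest to the threshold. It had 65603, 47325 and 44424 in labelled knockouts 1 to 3, against 31377, 28338 and 24224 in wild types 1 to 3. The groups were well separated, with means of 52451 ± 11482 in the labelled knockouts and 27980 ± 3590 in wild type (SD, n = 3 each). The log2 fold change was 0.89 ± 0.22, or 1.86-fold, with limma adjusted p = 0.0543. It was 0.62 ± 0.16 without both low-score libraries (limma adjusted p = 0.0295), 0.72 without labelled knockout 1 (limma adjusted p = 0.0473), 0.93 with the segment score as a covariate (limma adjusted p = 0.0179) and 1.44 between the low-score libraries. Leaving out any other single library gave limma adjusted p of 0.0868 to 0.201.

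Fabp2, the intestinal-type protein, which binds long-chain fatty acids, had 71558, 26167 and 28117 in labelled knockouts 1 to 3, against 28477, 26640 and 21142 in wild types 1 to 3. Labelled knockout 1 stood far above the other 5 libraries, which overlapped. The log2 fold change was 0.57 ± 0.40 (limma adjusted p = 0.367), 0.11 without labelled knockout 1 and -0.02 without both low-score libraries.

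The epithelial score moved with the groups. Relative to the epithelial score, the labelled knockout minus wild type difference in log2 level was 0.33 for Fabp1, 0.14 for Apobec1, 0.01 for Fabp2, -0.05 for Sar1b and -0.21 for Mttp. For the apolipoproteins it was -0.47 for Apoa1, -0.70 for Apoc2, -0.94 for Apoa4, -1.27 for Apob and -1.75 for Apoc3. Setting levels against the score lowers every member's difference by the same 0.56, so the order of the members is that of the unadjusted fold changes. On either scale the 5 apolipoproteins were all below the other 5 members, at -1.18 to 0.09 against 0.35 to 0.89 unadjusted. These differences are descriptions without a test, and the part of epithelial content in each member's change was not tested.

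**Figure D2:**
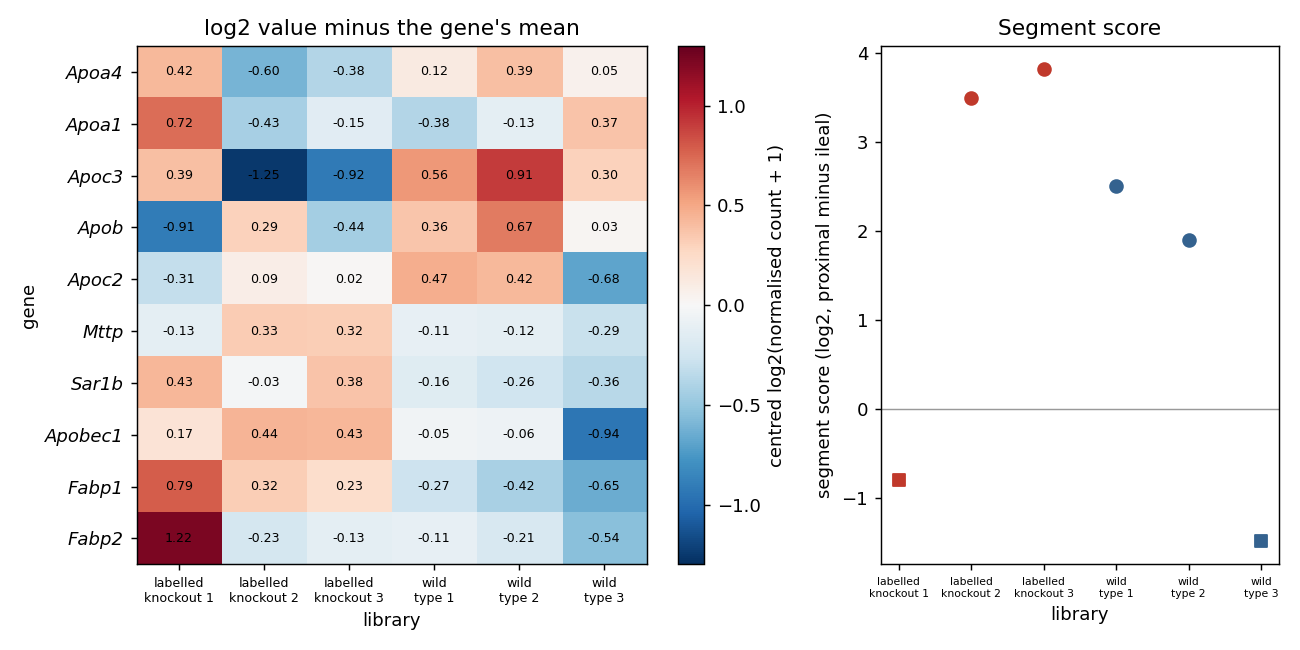
Heat map of each member's log2(value + 1) in each library minus its mean over the 6 libraries, labelled knockouts left of wild type, beside the segment score of each library (squares: low-score libraries). Labelled knockout 1 is high for Apoa1, Apoa4, Apoc3 and Fabp2, where labelled knockouts 2 and 3 are below the mean.

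Ratios of members inside a library do not depend on how libraries were scaled, and 8 were compared by exact two-sided permutation over libraries, for which the smallest possible p is 0.1. The Mttp to Apob ratio was 1.26, 0.755 and 1.25 in labelled knockouts 1 to 3, against 0.531, 0.423 and 0.588 in wild types 1 to 3, with no overlap. The Fabp1 to Apob ratio was 2.81, 0.880 and 1.37 in labelled knockouts, against 0.558, 0.405 and 0.542 in wild type. The Apobec1 to Apob ratio was 0.0283, 0.0148 and 0.0245 in labelled knockouts, against 0.0101, 0.0080 and 0.00683 in wild type. Every labelled knockout thus had more Mttp, Fabp1 and Apobec1 transcript per Apob transcript count than every wild type, with mean log2 differences of 1.06, 1.60 and 1.41 in that order.

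The Apoc3 to Apoa4 ratio, between close neighbours on chromosome 9, was 0.0262, 0.0171 and 0.0185 in labelled knockouts, against 0.0365, 0.0384 and 0.0319 in wild type. It was lower in all 3 labelled knockouts, labelled knockout 1 included, with a log2 difference of -0.81. Each of these 4 separated ratios had exact permutation p = 0.1, the smallest possible (0.2 after Benjamini-Hochberg adjustment over the 8). The ratios over Apob share that gene and are not independent, and Fabp1 and Apobec1 also separated by themselves. Among single genes, 19.8% lay higher in every labelled knockout and 17.8% lower. The share among other ratios of genes was not computed. The other 4 ratios overlapped. The Fabp1 to Fabp2 ratio was 0.917, 1.81 and 1.58 in labelled knockouts, against 1.10, 1.06 and 1.15 in wild type (exact permutation p = 0.4). The Apoa4 to Apob ratio ranged most widely among the labelled knockouts, at 57.1, 12.2 and 23.6, against 19.1, 18.6 and 23.0 in wild type (exact permutation p = 0.7). The Apoa1 to Apoa4 ratio was 0.303, 0.276 and 0.289 in labelled knockouts, against 0.175, 0.171 and 0.307 in wild type, where wild type 3 matched the labelled knockouts (exact permutation p = 0.4). The Apoc2 to Apoc3 ratio differed by 1.05 on the log2 scale (exact permutation p = 0.3).

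**Figure D3:**
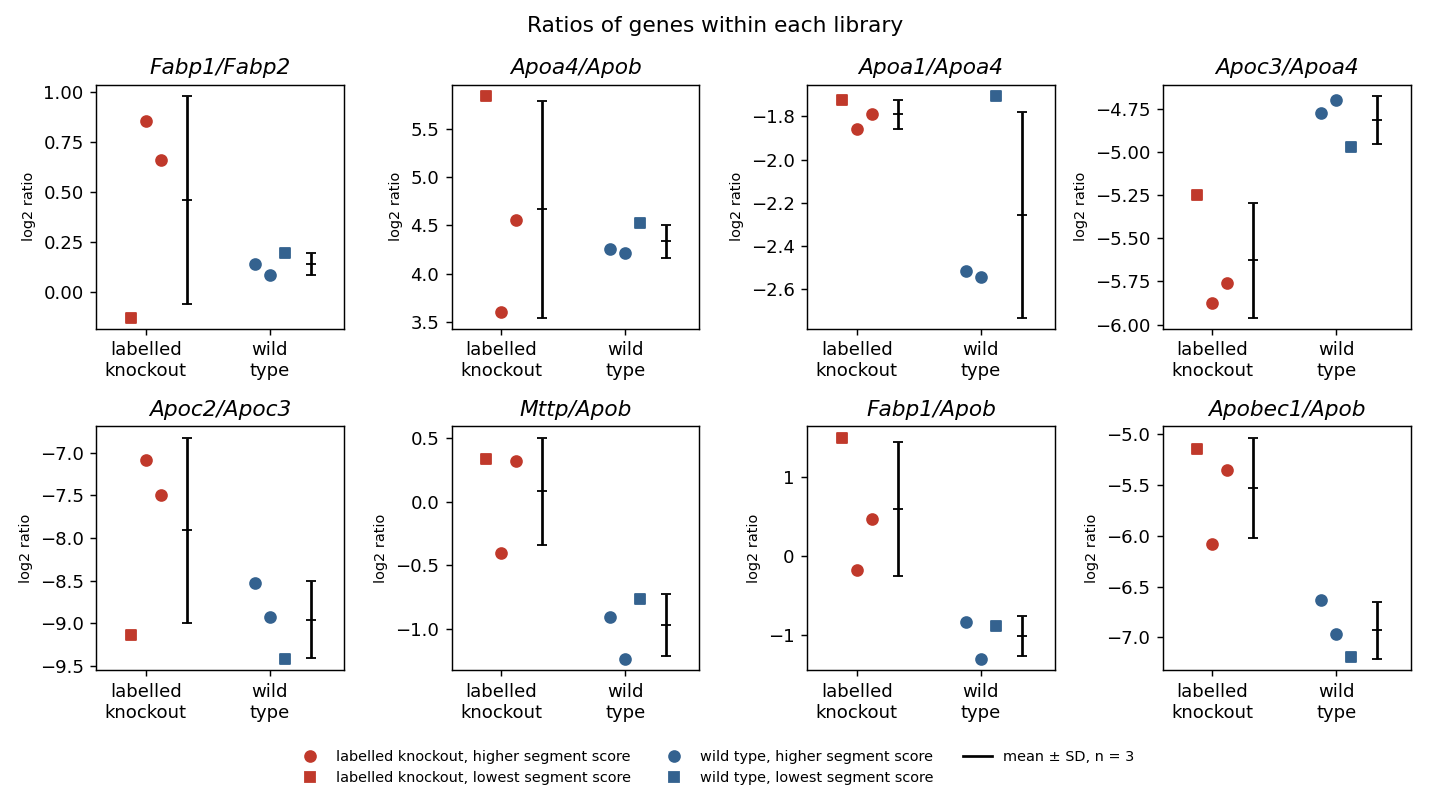
Within-library log2 ratios of members, a panel per ratio with its own axis, a point per library (squares: low-score libraries), labelled knockouts left of wild type and the group mean ± SD (n = 3). Mttp, Fabp1 and Apobec1 over Apob lie higher in every labelled knockout, and Apoc3 over Apoa4 lies lower in every labelled knockout.

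Levels of different genes were compared per kilobase of the union of annotated exons. Apoa4 and Apoa1 ranked first and second of the members in all 6 libraries, at 505134 ± 200346 and 217163 ± 96087 normalised counts per kilobase in the labelled knockouts and 626215 ± 80353 and 196220 ± 53332 in wild type (SD, n = 3 each). Fabp1 had 94847 ± 20764 per kilobase in the labelled knockouts and 50596 ± 6492 in wild type. Fabp2 had 43469 ± 26593 in the labelled knockouts and 26342 ± 3955 in wild type, and Apoc3 had 19798 ± 12794 in the labelled knockouts and 40166 ± 8584 in wild type. The order of Fabp2 and Apoc3 was turned between the groups: Fabp2 was 2.15, 2.46 and 2.1 times Apoc3 per kilobase in labelled knockouts 1 to 3, against 0.761, 0.559 and 0.677 times in wild types 1 to 3. That pair was picked after the values were seen and is given without a test. Below them stood Mttp (5923 ± 1025 in the labelled knockouts and 4607 ± 323 in wild type), Apob (2618 ± 1124 in the labelled knockouts and 4088 ± 908 in wild type), Sar1b (1478 ± 242 in the labelled knockouts and 1025 ± 69.7 in wild type), Apobec1 (277 ± 28.4 in the labelled knockouts and 176 ± 55.1 in wild type) and Apoc2 (89.8 ± 13.0 in the labelled knockouts and 105 ± 40.6 in wild type). The ranges of Mttp and Apob overlapped across wild type libraries, as did those of Fabp1 and Apoc3, while each of these pairs was separated among the labelled knockouts. Inside each library, however, Fabp1 exceeded Apoc3 in both groups. Mttp exceeded Apob in every library but wild type 2, where it had 4772 against 5021 per kilobase. The 10 members together made up 8.66% ± 2.45 of all normalised counts in the labelled knockouts and 11.3% ± 1.22 in wild type (SD, n = 3 each; exact permutation p = 0.3).

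The members did not share one profile over the libraries. For each, the 1 gene of 10614 with the most similar centred log2 levels was found, by root-mean-square difference over the 6 libraries. It was the cytochrome P450 gene Cyp2j6, itself on the proximal list of the segment score, for Fabp1 (0.0514), Plac8 for Apobec1 (0.078), Cdk11b for Sar1b (0.0436), Spag5 for Mttp (0.0382), Thbs1 for Apob (0.0939), Hoga1 for Apoc3 (0.119), Kctd14 for Apoc2 (0.0969), Prpf38a for Apoa1 (0.0657), 9530082P21Rik for Apoa4 (0.0409) and Ppp2r3d for Fabp2 (0.149). The nearest other member was always farther away. For Fabp1 it was Sar1b at 0.258, with 751 genes closer, and for the neighbours Apoa1 and Apoa4 it was the other of the pair at 0.362. With 6 libraries and 10614 candidates, these likenesses describe the libraries only.

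The rest of the pathway was read from 9 lists that held 132 genes, of which 117 were tested and 11 or 9.4% passed the threshold, 8 higher and 3 lower in the labelled knockouts, close to the 8.79% of all genes. Among other apolipoproteins, 0 of 5 tested genes rose and 2 fell, with a median log2 fold change of -1.39. Apom, a carrier of sphingosine-1-phosphate, was at 7, 7 and 6 in labelled knockouts, against 24, 34 and 20 in wild type (-1.79 ± 0.32, limma adjusted p = 0.0254), and Apoc1 was at 17, 18 and 6 in labelled knockouts, against 45, 109 and 55 in wild type (-2.30 ± 0.50, limma adjusted p = 0.0406). Both are low in this tissue.

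Of 10 genes of particle assembly 1 rose, with a list median of 0.40. It was Surf4, a cargo receptor for lipoproteins in the endoplasmic reticulum, at 11113, 10554 and 11360 in labelled knockouts, against 7546, 6596 and 6281 in wild type (0.70 ± 0.14, limma adjusted p = 0.0361). P4hb, the protein disulphide isomerase that is the small subunit of the Mttp complex, had a log2 difference of 0.38 (limma adjusted p = 0.260). Of 20 genes of COPII coat and export 1 rose, with a list median of 0.16. It was the coat component Sec13, at 6016, 5519 and 5213 in labelled knockouts, against 3415, 3164 and 3354 in wild type (0.75 ± 0.13, limma adjusted p = 0.0245). The editing cofactors of Apobec1 gave 0 calls of 8, with a median of 0.02. Rbm47, which serves Apob editing, differed by 0.09 (limma adjusted p = 0.866), and the abundant Hnrnpab had 0.53 (limma adjusted p = 0.0746).

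Among 9 other lipid-binding proteins 1 rose, with a median of 0.34: Dbi, the acyl-CoA binding protein (0.69 ± 0.17, limma adjusted p = 0.0493). Rbp2, the intestinal retinol carrier of the same family as the fatty acid binding proteins, had 102049, 64038 and 79463 in labelled knockouts, against 50893, 45377 and 35010 in wild type, which did not overlap (0.89 ± 0.26, limma adjusted p = 0.0737). Genes of fatty acid uptake and activation gave 0 calls of 10, with a median of -0.13 and 4 positive fold changes. Without both low-score libraries 1 was higher and 4 were lower, where 26.4% of all genes passed, and the list median was -0.40. Slc27a1 of this list passed as lower under both scalings to library totals. The acyl-CoA synthetase gene Acsl5 differed by 0.52 (limma adjusted p = 0.118) and the transporter gene Slc27a4 had 0.67 (limma adjusted p = 0.130).

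Triglyceride resynthesis held the most calls, 4 of 13 higher and 0 lower, with a list median of 0.13, and without both low-score libraries it had 4 higher and 3 lower. Agpat3, of the same enzyme family as Agpat2, lay just outside the threshold at -0.68 (limma adjusted p = 0.0509) and passed it as lower under library totals with or without Apoa4, upper-quartile and trimmed-mean scaling. Agpat2, which makes phosphatidic acid, was at 4912, 4540 and 4745 in labelled knockouts, against 2047, 1846 and 2223 in wild type (1.22 ± 0.13, limma adjusted p = 0.0107). Lpin3, a phosphatidic acid phosphatase, was at 1386, 1322 and 1655 in labelled knockouts, against 673, 595 and 759 in wild type (1.11 ± 0.16, limma adjusted p = 0.0172). Agpat1 (0.63, limma adjusted p = 0.0409) and Dgat1, which catalyses the last step of triglyceride synthesis (0.77, limma adjusted p = 0.0433), also rose.

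Of 31 regulators, 1 rose and 1 fell, with a median of 0.06. Srebf2, the gene of a sterol-responsive transcription factor, had a log2 difference of 0.90 ± 0.15 (limma adjusted p = 0.0236), and Ets1 had -0.92 ± 0.14 (limma adjusted p = 0.0200). Genes of receptors and clearance gave 0 calls of 11, with a median of -0.21, among them the remnant receptor gene Lrp1 at -0.28 (limma adjusted p = 0.373).

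All 11 of these calls held without labelled knockout 1, where 20.6% of all genes passed. Without both low-score libraries all 10 that could be tested held, Apom having failed the filter, where 26.4% of all genes passed. Without labelled knockout 2, 3 of the 11 passed (Agpat2, Lpin3 and Ets1), where 4.26% of all genes did. Without wild type 3, 2 passed (Agpat2 and Lpin3), where 2.67% of all genes did. Without labelled knockout 3, wild type 1 or wild type 2, 0 passed, where 0.19%, 0.54% and 0.39% of all genes did. These counts rose and fell with the share of all genes called. Surf4 and Agpat1 missed the threshold under library totals, under totals without Apoa4 and under upper-quartile scaling, and Dbi under those and trimmed-mean scaling. Dgat1 missed it under upper-quartile scaling and totals without Apoa4, and Srebf2 under both scalings to totals. Sec13, Agpat2, Lpin3, Apom, Apoc1 and Ets1 passed under every scaling tried. Scaling to library totals lowered all lists together, which turned the medians of the COPII list to -0.01, of triglyceride resynthesis to -0.04, of the editing cofactors to -0.15 and of the regulators to -0.11. Epithelial markers moved in the same direction as the genes that rose, with 3 of 10 called (Krt19, Elf3 and Cldn15) and a list median of 0.50, and endothelial markers in the other, with 4 of 8 lower. The part of tissue composition in these pathway calls was not tested.

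**Figure D4:**
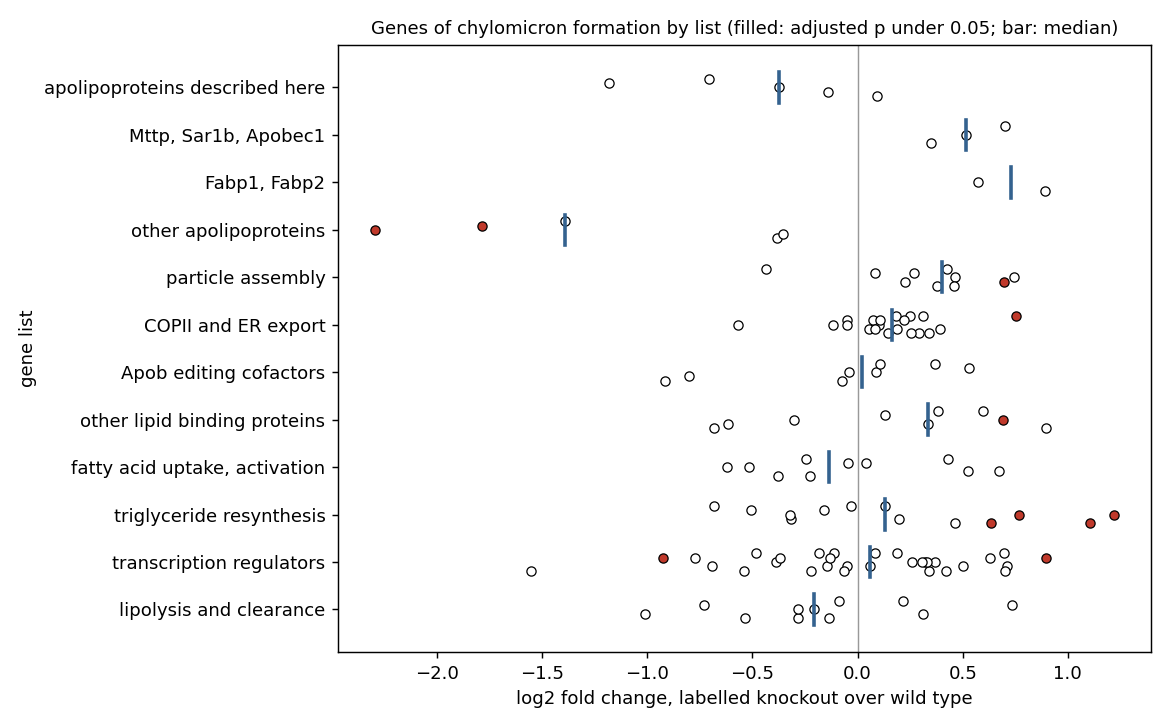
Log2 fold changes, labelled knockout over wild type, of the tested genes of the 3 groups of members and the 9 pathway lists, a point per gene, filled where the limma adjusted p was under 0.05, with a bar at the list median. The members hold 0 filled points, and triglyceride resynthesis holds 4, all higher in the labelled knockouts; Agpat3 of that list, open at -0.68, passed as lower under 4 of the other scalings.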

How the data were processed

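The labels give polyadenylated RNA from whole small intestine and TruSeq libraries. Per the submitters' processing notes, reads were handled with TopHat2 (2.1.0), HTSeq (0.6.0) and DESeq2 on the build mm10, and no source used here gives their settings. Each deposited file holds 1 value per gene symbol, a whole number that the authors had already normalised, treated here as a score and not as a raw count. Of the 24452 symbols 27 had been turned into dates by a spreadsheet, and 5079 were at 0 in all libraries. Values were tested with limma 3.58.1 (R 4.3.3, trend) on log2(value + 1), after a filter of at least 10 in at least 3 libraries, with genotype as the only term, two-sided, and Benjamini-Hochberg adjustment over all 14686 genes tested. The fit had 4 residual and 2.99 prior degrees of freedom. Fold changes on this scale understate the change of low genes. The scripts were tested on simulated data. Ratios of members were compared by exact permutation (Python 3.11.15, scipy 1.17.1). The members, gene lists and motifs were chosen with earlier results of these data known. All members were named. From each other list up to 4 called genes in order of p were named, and where fewer than 2 were called, the 2 most abundant (some genes under this rule are not reported here); epithelial and other cell markers were given as counts and sums. The 1 most similar gene to each member was taken among genes with a mean of at least 100. Of the listed symbols, 4 had no row. No sample was dropped except where a result says so. Alternatives covered scaling, pseudocount, filter, prior, covariates, the replicate block and left-out libraries.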

Additional observations from a re-analysis of the deposited data

How the results depend on the processing

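Over 21 alternatives for each member, 198 of 210 member fold changes kept their direction and 12 turned, and 6 members never turned. Apoa1 was -0.081 under library totals, -0.12 under totals without Apoa4 (an alternative added after the data were seen), -0.25 (without labelled knockout 1) to 0.33 (without labelled knockout 2) with single libraries left out and -0.038 without both low-score libraries; Apoc2 ran from -0.51 (without wild type 3) to 0.063 (without wild type 1); and Fabp2 was -0.022 without both low-score libraries. With the epithelial score as a covariate, which is nearly collinear with genotype, Apoa1 was -2.86, Apob 2.31, Apoc2 3.71 and Fabp2 -0.14. The log2 Apoa4 to Apob ratio difference ran from -0.25 (without labelled knockout 1) to 0.86 (without labelled knockout 2). The cause was not tested. Members called numbered 0 with all libraries, 1 with a filter of 50 or a robust prior (Fabp1), 3 with the segment covariate, 3 without both low-score libraries, and 0 to 2 with single libraries left out. A threshold of 0.1 gave 2 and 0.01 gave 0. Genes called numbered 1291, against 4255 with the segment covariate, 3762 without both low-score libraries, 0 with the epithelial covariate (992 at an unadjusted p under 0.05 in limma), 2847 at a threshold of 0.1, 52 at 0.01, and 28 (without labelled knockout 3) to 2998 (without labelled knockout 1) with single libraries left out. The median over all genes moved from -0.01 to -0.19 under library totals, where 414 of 1397 calls were higher against 712 of 1291 as reported. Same-numbered libraries did not all deviate together (correlations of -0.373, 0.302 and -0.161), and not every library correlated best with its own number. From 3 libraries per group, these correlations cannot show whether equal numbers share a litter or a day, and the labels do not say. The replicate block gave 64 genes and 0 members called. With 3 libraries per group, the spread between libraries limits the precision.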
